A study of Mus musculus with 4 samples.

Results

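Kcnj10, Kcnj16, Kcnk1, Atp1b1 and Atp1b2 are genes with which astrocytes of the mouse spinal cord handle potassium and sodium. They were chosen by name, as 5 of the 32287 gene features of each matrix, and were described across marker-defined cell classes of an injured and an uninjured library. Young adult mice of the Cx30-tdTomato line, a cross of a Cx30 driver with an R26R-tdTomato reporter in which tamoxifen turns on tdTomato in cells that express the gap junction gene Cx30, received a pool of enhancer viruses by vein in both groups. The injured mice then had a contusion of the cord, 14 days after the virus, and 5 mm of cord around it was taken at 3 days post injury, while the controls gave the same level of an uninjured cord. The sorted tdTomato-positive cells of each condition, which the series describes as animals of both sexes, were pooled into 1 gene expression library. With 1 library per condition there was no replicate and no test, so all 95% intervals below cover counting error only and say nothing of the spread between animals.

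Astrocytes take up the potassium that active neurons release and pass it on through a coupled network. Kcnj10 encodes the inward rectifier Kir4.1, the main potassium channel of astrocytes, and Kcnj16 encodes Kir5.1, which forms mixed channels with it. Kcnk1 encodes TWIK-1, a 2-pore channel that carries a leak current. Sodium pumps drive sodium out and potassium in, and each pump joins a catalytic alpha subunit with a beta subunit that takes it to the membrane. Atp1b2 encodes the beta subunit known as the adhesion molecule on glia, and Atp1b1 the beta subunit that is widespread in neurons and epithelia.

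By the GENCODE M21 annotation of GRCm38 all 5 are protein-coding genes. Kcnj10 lies at chr1:172341210-172374085 and Kcnk1 at chr8:125995170-126030685, both on the plus strand. Kcnj16 lies at chr11:110968033-111027968 on the plus strand, and Atp1b2 at chr11:69599736-69605942 on the minus strand of the same chromosome. Atp1b1 lies at chr1:164437109-164458355 on the minus strand. The 250 bases before the RefSeq starts (GRCm38.p6, plus strand) of Kcnj10 (chr1:172340960-172341209) and Kcnk1 (chr8:125994852-125995101) are shown because the levels of these channel genes parted between the libraries. Capitals mark TTGGC, the core that the NFI factors recognise, which stands on the plus strand 66 bases before the start of Kcnj10 and 57 bases before that of Kcnk1.

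Kcnj10: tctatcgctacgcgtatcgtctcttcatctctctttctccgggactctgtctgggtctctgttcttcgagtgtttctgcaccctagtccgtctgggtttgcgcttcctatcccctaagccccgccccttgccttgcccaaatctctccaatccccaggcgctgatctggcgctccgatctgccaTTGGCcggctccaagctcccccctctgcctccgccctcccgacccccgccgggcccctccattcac

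Kcnk1: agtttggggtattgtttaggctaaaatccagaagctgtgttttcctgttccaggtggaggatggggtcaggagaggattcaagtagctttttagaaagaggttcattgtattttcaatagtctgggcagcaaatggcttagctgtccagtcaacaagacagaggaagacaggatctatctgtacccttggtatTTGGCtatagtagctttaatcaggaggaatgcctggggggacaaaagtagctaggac

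TTGGC was searched on both strands in windows from 250 bases before to 50 after the start, and 46.7% of 32851 RefSeq promoters held it. In Kcnj10 it overlaps a CCAAT box read on the other strand, and 37.4% of promoters held CCAAT. The AP-1 site TGANTCA was in 7.81% of promoters and in none of the 7 windows of Atp1b1, Kcnj10, Kcnk1 and Kcnj16, of which Kcnj16 has 4. These matches describe letters and were not read as binding sites.

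After the filter on depth the injured library had 879 cells with a median of 6816 gene UMIs (unique molecules), and the uninjured one 4159 cells with a median of 3343. Clusters were made without the 5 genes and were named from marker genes. Astrocyte-like cells numbered 409 after injury (46.5%) and 3160 in the control (76.0%), with median depths of 3715 and 3285. All 8 astrocyte markers were detected in both, at 9851 and 11707 CPM in all (UMIs per 1000000 gene UMIs of a class). Different clusters held these cells: cluster 3, led by Gfap and Lcn2, held 82.2% of the injured ones, and the uninjured ones were spread over clusters 4, 8, 11 and 12 (25.6%, 13.5%, 36.1% and 24.3%). By transcripts of the sex chromosomes 250 injured cells were scored female and 315 male, against 2 and 2770 uninjured cells. A further 314 injured and 1387 uninjured cells had no score. The uninjured cells thus go against a pool of both sexes, and values within male cells are given where they matter. These rest on 127 injured and 2169 uninjured astrocyte-like cells, a selected part. A Kcnj10 UMI was found in 76.4% of these injured male cells, against 59.7% of all injured astrocyte-like cells. The libraries shared 7 cell barcodes, of which 3 were in kept cells.

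Some uninjured groups carried neuron markers beside astrocyte markers. The 245 uninjured cells named neuron-like had a median depth of 1796 and 9653 CPM of astrocyte markers, near the astrocyte-like value, beside 1748 CPM of 6 neuron markers. The 21 injured neuron-like cells had 597 and 7373 CPM of the same lists. A further cluster of 553 uninjured and 9 injured cells had Nefl, Snap25 and Aldoc among its leading genes and stayed unnamed. The 5 genes are therefore given for these groups on their own.

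Kcnj10 was found mostly in astrocyte-like cells. Its level was 478.5 CPM (95% interval 450.4 to 507.9) in the injured and 457.3 CPM (445 to 469.7) in the uninjured astrocyte-like cells. Ependymal-like cells, the ciliated lining of the central canal, followed with 197 and 133 CPM, and injured OPC-like cells, the precursors of oligodendrocytes, with 71.2 CPM (55.4 to 90.1). In the injured library it was 2.43 times higher in astrocyte-like than in ependymal-like cells (2.15 to 2.75) and 6.72 times higher than in OPC-like cells (5.27 to 8.70). Injured fibroblast-like, microglia-like and endothelial-like cells had 6.93, 4.23 and 2.67 CPM with overlapping intervals. The uninjured unnamed cluster, at 504.6 CPM, and the uninjured neuron-like cells, at 427 CPM, were at the astrocyte-like level.

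Kcnj16 was also highest in astrocyte-like cells among the injured classes. It stood at 151 CPM (136 to 168) in injured and 118 CPM (111 to 124) in uninjured astrocyte-like cells, and at 56.6 CPM in injured ependymal-like and 49.5 CPM in injured OPC-like cells, whose intervals overlapped. The uninjured unnamed cluster had 134 CPM (119.8 to 149.5) and the uninjured neuron-like cells 110 CPM (87.0 to 137), near the astrocyte-like level. No Kcnj16 UMI was found in 1891760 gene UMIs of 129 injured microglia-like cells, which by 3 counts allows up to 2.33% of cells with a UMI and sets no limit on cells that express the gene. The UMIs of Kcnj10 per UMI of Kcnj16 were 3.16 (2.80 to 3.58) in injured and 3.89 (3.67 to 4.13) in uninjured astrocyte-like cells. Injured ependymal-like cells had a like ratio of 3.48 (2.77 to 4.41), while injured OPC-like cells had 1.44 (0.980 to 2.12). These ratios were compared between cells and are not a ratio of the amounts of both transcripts, since capture can differ by gene.

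Kcnk1 was lower in injured than in uninjured astrocyte-like cells. It reached 202 CPM (184 to 222) in injured and 416.5 CPM (405 to 428) in uninjured astrocyte-like cells. Injured OPC-like cells had 57.8 CPM (43.6 to 75.02) and injured ependymal-like cells 33.6 CPM (25.5 to 43.6). Uninjured ependymal-like cells had 75.7 CPM on 12 UMIs, so the injured level was also lower there, at 0.444 times (0.236 to 0.910). Fibroblast-like cells were lower too, at 0.152 times (0.0357 to 0.501) on 4 injured and 12 uninjured UMIs. The ratio in OPC-like cells was 1.37 (0.506 to 5.20), an interval that includes no difference. The uninjured unnamed cluster had 484 CPM (457 to 513), above the uninjured astrocyte-like level, and the uninjured neuron-like cells 311.5 CPM (272 to 355). No Kcnk1 UMI was found in 129 injured and 32 uninjured microglia-like cells, nor in 70 injured and 26 uninjured endothelial-like cells, which by 3 counts allows up to 2.33%, 9.38%, 4.29% and 11.5% of cells with a UMI.

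Atp1b2 was at 1743 CPM (1689 to 1798) in injured and 1976 CPM (1950 to 2002) in uninjured astrocyte-like cells. It was also present in injured OPC-like cells, at 338 CPM (303 to 377), and in ependymal-like cells, at 145 and 196 CPM in the injured and uninjured libraries. The 13 injured mural-like cells, which sheathe small vessels, had 377 CPM (258 to 532), a value that rests on 32 UMIs. Injured microglia-like and endothelial-like cells had 4.23 and 4.01 CPM. The uninjured unnamed cluster had 2332 CPM (2271 to 2394), above the uninjured astrocyte-like level, and the uninjured neuron-like cells 1585 CPM (1495 to 1679).

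Atp1b1 had another order of classes, with its highest levels in cells that carried neuron markers. It reached 298.5 CPM (201 to 426) in injured and 377 CPM (334 to 425) in uninjured neuron-like cells, and 122 CPM (109 to 137) in the uninjured unnamed cluster. Astrocyte-like cells had 19.96 CPM (14.6 to 26.7) and 32.1 CPM (28.9 to 35.5) in the injured and uninjured libraries, and injured OPC-like cells 42.3 CPM (30.4 to 57.4). Microglia-like cells had 1 UMI in all.

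**Figure D1:**
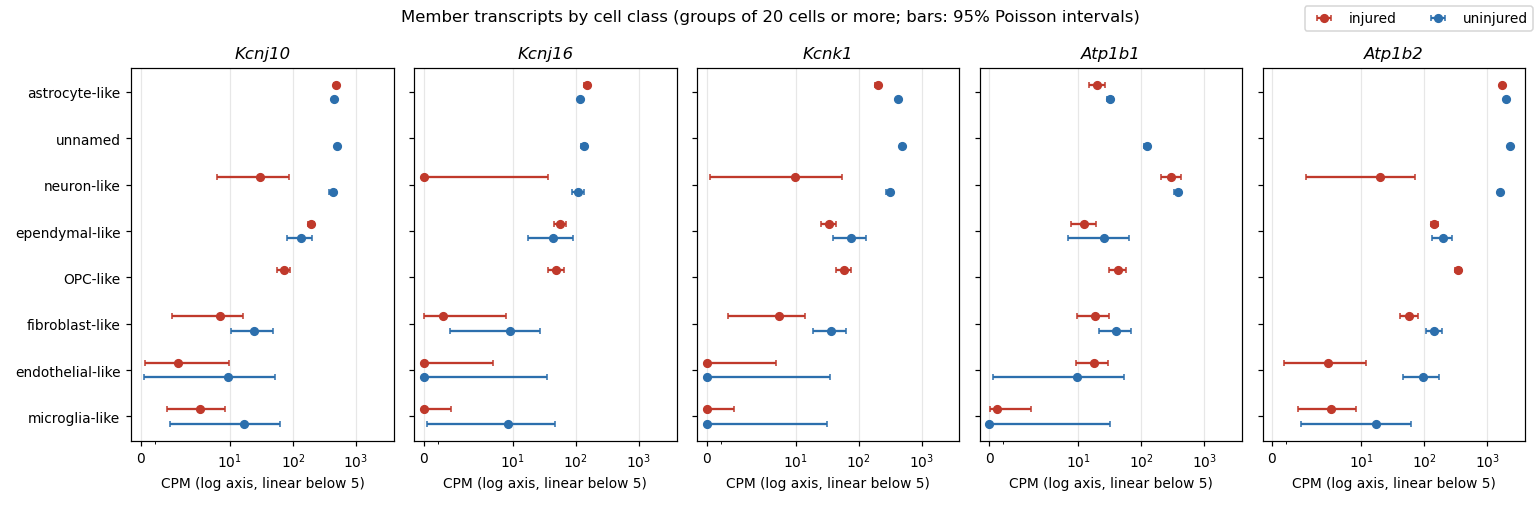
CPM of each gene (horizontal, log axis that is linear below 5) by cell class in the injured (red) and uninjured (blue) library, for groups of 20 cells or more, with exact Poisson 95% intervals as bars. Kcnj10, Kcnj16, Kcnk1 and Atp1b2 lie far right in astrocyte-like cells and in the uninjured unnamed and neuron-like groups. Atp1b1 lies far right in neuron-like cells, at 298.5 and 377 CPM.

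Against all other named classes pooled within the injured library, Kcnj10 was 7.06 times higher in astrocyte-like cells (6.30 to 7.92), Kcnj16 6.48 times (5.32 to 7.92), Kcnk1 10.7 times (8.68 to 13.2) and Atp1b2 16.4 times (15.1 to 17.8). These 4 genes were all past 2-fold, where 16.8% of the genes at 50 CPM or more on either side were. Atp1b1 was below 50 CPM on both sides, with a ratio of 1.03 (0.716 to 1.47). In the uninjured library the same ratios were 1.98 for Kcnj10, 1.91 for Kcnj16, 2.52 for Kcnk1, 2.42 for Atp1b2 and 0.167 for Atp1b1, and 11.6% of genes were past 2-fold higher. Without the neuron-like cells they became 8.25, 6.36, 12.1, 15.3 and 1.19 in the same order, with an interval of 0.771 to 1.91 for Atp1b1.

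Shares of cells with a UMI were read beside microglia-like cells, a class that should lack these genes. An Atp1b2 UMI was found in 74.1% of injured astrocyte-like cells (69.6 to 78.3%) and in 93.96% of uninjured ones (93.1 to 94.8%), against 5.43% and 6.25% of microglia-like cells at median depths of 13386 and 3064. A Kcnj10 UMI was found in 59.7% and 69.4% of injured and uninjured astrocyte-like cells, and in 5.43% and 6.25% of microglia-like cells. For Kcnk1 the shares were 43.0% and 65.4%, and for Kcnj16 36.4% and 32.4%. For Atp1b1 they were 7.82% and 10.1%, against 0.775% of injured microglia-like cells.

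With each cell thinned to 1000 gene UMIs, which left out 32 injured and 66 uninjured astrocyte-like cells, an Atp1b2 UMI was left in 58.6% (53.5 to 63.6%) of injured and 79.7% (78.2 to 81.1%) of uninjured cells. Kcnk1 was left in 14.9% (11.4 to 18.9%) and 31.8% (30.1 to 33.4%). Both shares were lower in the injured library beyond counting error. For Kcnj10 the thinned shares were 31.6% (26.9 to 36.5%) and 35.3% (33.6 to 37.0%), and for Kcnj16 9.55% and 10.9%, with overlapping intervals for each gene. The most Atp1b2 UMIs in 1 astrocyte-like cell were 99 in the injured and 45 in the uninjured library.

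Between the conditions, 3 days after injury against none, the 5 genes did not move as 1 group. Kcnj10 was at 1.05 times its uninjured level in injured astrocyte-like cells (0.979 to 1.12), an interval that includes no difference. Within male cells its log2 ratio was 0.16 (0.024 to 0.29) and with a finer clustering 0.38 (0.29 to 0.48), both intervals above no difference. Over the alternatives described below it ran from -0.23 to 0.38, so this reading depends on the setting. Kcnj16 was 1.29 times as high (1.14 to 1.45), with a log2 ratio of 0.36 overall and 0.41 within male cells alone. Kcnk1 was at 0.486 times its uninjured level (0.440 to 0.535), with a log2 ratio of -1.04 overall and -0.91 within male cells. Atp1b2 was at 0.882 times (0.853 to 0.913) and Atp1b1 at 0.622 times (0.446 to 0.849), the latter on 45 and 372 UMIs. For Atp1b1 the log2 ratio within male cells was -0.60 (-1.36 to 0.030), an interval that includes no difference. Within male cells the log2 ratio of Atp1b2 was 0.05 (-0.020 to 0.11), an interval that includes no difference. With a finer clustering it turned to 0.10 (0.046 to 0.15), so no direction is given for Atp1b2.

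Of the 4 genes at 50 CPM or more in either library none was past 2-fold higher and Kcnk1 was past 2-fold lower. Among all 4230 such genes 17.3% were past 2-fold higher and 10.1% past 2-fold lower, with a median log2 ratio of -0.07. Kcnk1 stood at percentile 9.08 of these genes, and Atp1b2, Kcnj10 and Kcnj16 at percentiles 46.1, 54.0 and 63.8. In the same cells the 5 reactive astrocyte markers summed to 5263 CPM after injury and 76.2 CPM in the control. Ependymal markers summed to 112 and 32.2 CPM, of which Rarres2 gave 90.5 and 22.6, and macrophage and endothelial markers to 14.6 and 16.9 CPM after injury and to 1.47 and 3.80 CPM in the control. The microglia markers summed to 145.5 and 93.3 CPM, the neuron markers to 56.3 and 88.2 CPM, and the haemoglobin genes to 7.095 and 489 CPM. Their part in the ratios above was not tested.

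**Figure D2:**
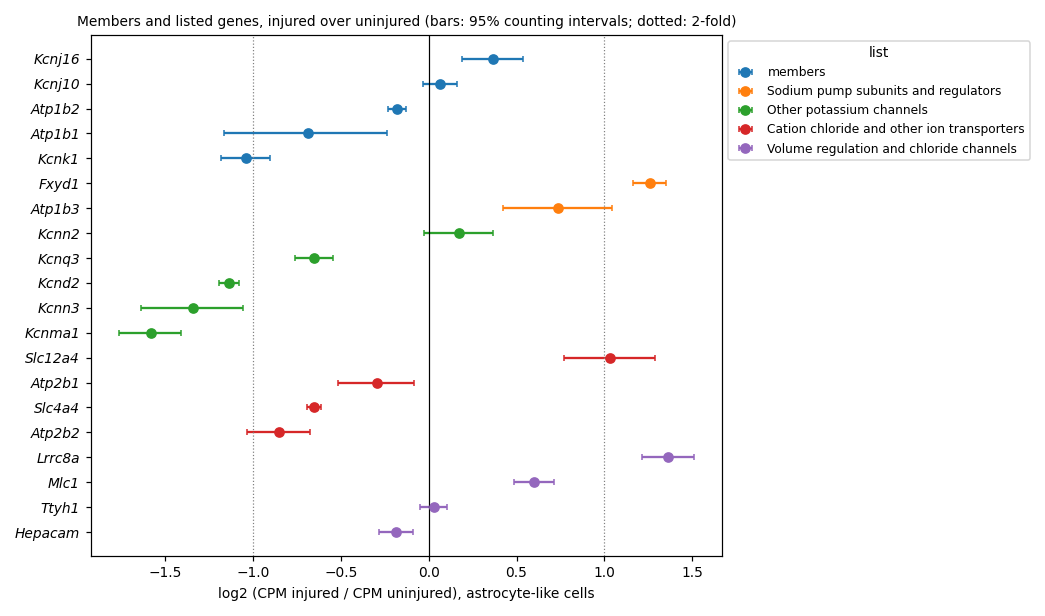
Log2 ratio of CPM in injured over uninjured astrocyte-like cells (horizontal) for the 5 genes and for named listed genes at 50 CPM or more, coloured by list, with exact 95% counting intervals; the dotted lines mark 2-fold. Kcnk1, Kcnd2, Kcnn3 and Kcnma1 lie left of the lower line, whereas Fxyd1, Slc12a4 and Lrrc8a lie right of the upper one.

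Among other pump genes Fxyd1, a small regulator of the pump, stood at 599.6 CPM in injured and 251 CPM in uninjured astrocyte-like cells, which was 2.39 times higher in the injured library. Atp1b3, another beta subunit, was at 51.9 and 31.1 CPM. Of the 12 pump genes listed 3 reached 50 CPM, and 1 was past 2-fold higher and 0 past 2-fold lower. The shares over all genes at 50 CPM or more were 17.3% higher and 10.1% lower. None of 12 other inward rectifiers and 10 other 2-pore channels reached 50 CPM, and these lists summed to 12.9 and 35.9 CPM in the injured cells.

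Of 15 other potassium channel genes 5 reached 50 CPM, and 3 of them were past 2-fold lower. Among all genes at 50 CPM or more 10.1% were past 2-fold lower. Kcnd2, a voltage-gated channel of the A-type current, was at 1250 CPM in injured and 2749 CPM in uninjured astrocyte-like cells. Kcnma1, the large-conductance calcium-activated channel, was at 125 and 374.5 CPM, and Kcnn3, a small-conductance one, at 47.0 and 119 CPM. Kcnq3 was at 335 and 527 CPM (ratio 0.636). Kcnn2 alone of the 5 was not lower, at 119 and 106 CPM.

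Among 12 ion transporters 5 reached 50 CPM. Slc12a4, a potassium chloride cotransporter, was 2.05 times higher in the injured library. Slc4a4, the sodium bicarbonate cotransporter of astrocytes, was at 2745 and 4314 CPM (ratio 0.636), and the calcium pumps Atp2b1 and Atp2b2 had ratios of 0.815 and 0.553. Of 6 genes of volume regulation and chloride transport 4 reached 50 CPM. Lrrc8a, the essential subunit of the volume-regulated anion channel, was 2.57 times higher in the injured library, and Mlc1, a membrane protein of astrocyte endfeet, 1.52 times. Its partner Hepacam had a ratio of 0.880 and Ttyh1 one of 1.02.

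The ratio moved with the length of the gene. The 4230 genes were split into 4 groups of about equal size by gene span, from start to end in the annotation, and the median log2 ratio fell from 0.91 in the shortest genes through 0.29 and -0.33 to -0.63 in the longest. The share past 2-fold lower rose from 3.595% through 6.06% and 10.4% to 20.5%. Kcnd2, Kcnma1, Kcnn2, Kcnn3, Kcnq3, Slc4a4, Atp2b1 and Atp2b2 are in the longest group. There Kcnma1 was at percentile 3.88, Kcnq3 at percentile 47.0, Atp2b1 at percentile 76.65 and Kcnn2 at percentile 89.6. Kcnk1 spans 35.5 kb in the second group and was at percentile 5.49 there, while Kcnj10, with 32.9 kb in the same group, was at percentile 39.4. Kcnj16, with 59.9 kb, was at percentile 83.8 of the third group, and Atp1b2, with 6.21 kb, at percentile 12.4 of the shortest group. The part of gene length in these ratios was not tested.

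**Figure D3:**
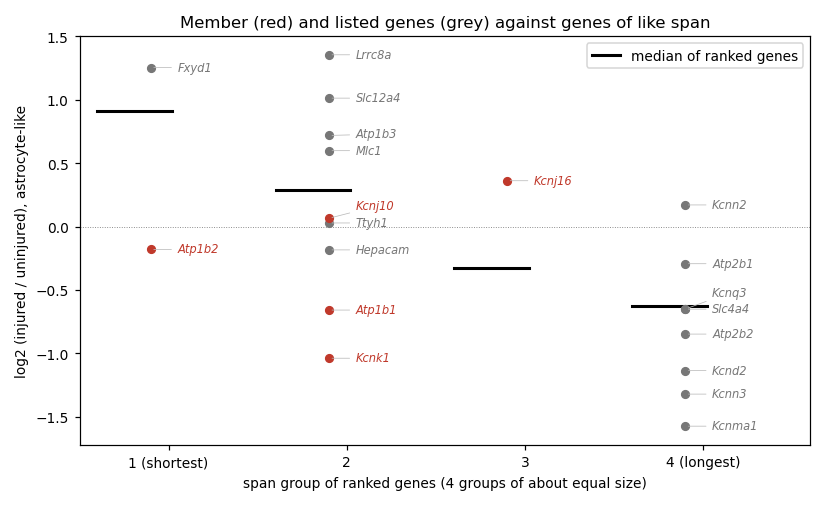
Log2 ratio of injured over uninjured CPM in astrocyte-like cells (vertical) for the 5 genes (red) and named listed genes (grey), placed by group of gene span, with the median of all ranked genes of each group as a black line. The medians step down from 0.91 to -0.63, and Kcnk1 lies below its group's median of 0.29 while Kcnj16 lies above its own of -0.33.

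Kcnj10 varied least of the 5 genes among the uninjured astrocyte-like clusters. Its level lay between 442 CPM in cluster 12 and 480 CPM in cluster 11, a range of 1.09-fold, and 99.1% of 4205 genes had a range at least as wide. Kcnk1 ran from 240 CPM in cluster 4 through 341 CPM in cluster 12 and 497.5 CPM in cluster 11 to 553 CPM in cluster 8, a range of 2.30-fold. Past 2-fold were 32.1% of genes, and Kcnk1, Kcnj16 (2.24-fold) and Atp1b1 (2.69-fold) were among them. Atp1b2 ran from 1517 CPM in cluster 4 to 2336 CPM in cluster 8. Cluster 4 was the shallowest, at a median of 2023 gene UMIs, and had the lowest level of astrocyte markers, at 8970 CPM, against 14343 CPM in cluster 8. Its leading genes include mt-Nd6 and mt-Nd2, and mitochondrial genes took 10.4% of its uninjured UMIs, against 3.78% to 5.999% in the other 3 clusters. Without cluster 4, none of the 5 genes ranged past 2-fold, with Kcnk1 between 341 and 553 CPM, Kcnj16 between 123 and 149 CPM and Atp1b1 between 19.4 and 33.05 CPM.

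The injured cluster 3 was set against each of these uninjured clusters. Kcnk1 was lower against all 4, at 0.862 times cluster 4 (0.754 to 0.986), 0.374 times cluster 8, 0.415 times cluster 11 and 0.606 times cluster 12. Kcnj10 was between 1.02 and 1.10 times each of them. Kcnj16 was 2.41 times cluster 4 but 1.07 times cluster 8 (0.908 to 1.26), and Atp1b2 lay on both sides, at 1.18 times cluster 4 and 0.765 times cluster 8. Within cluster 4, which both libraries shared, the 56 injured cells had lower levels than the 808 uninjured ones, at 0.523 times for Kcnj10 (0.340 to 0.772), 0.372 times for Kcnk1 (0.177 to 0.690) and 0.411 times for Atp1b2 (0.320 to 0.521). Kcnj16 was also lower there, at 0.270 times on 2 injured UMIs (0.0323 to 0.994), against its direction over all astrocyte-like cells, and Atp1b1 was at 0.664 times (0.178 to 1.75). The injured cells of cluster 4 had 43.1% mitochondrial UMIs, against 6.53% in cluster 3, and fewer UMIs of astrocyte markers, at 5187 against 8970 CPM in the uninjured cells, and the part of both in the ratios was not tested. Without cluster 4 the log2 ratios of injured over uninjured astrocyte-like cells were 0.09 for Kcnj10, 0.31 for Kcnj16, -1.11 for Kcnk1, -0.51 for Atp1b1 and -0.20 for Atp1b2.

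**Figure D4:**
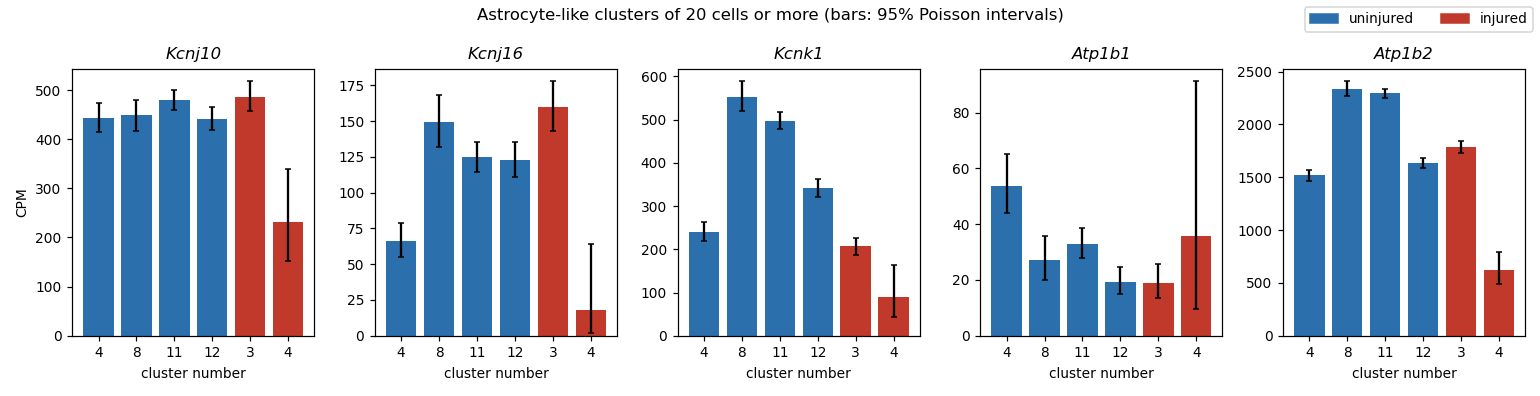
CPM (vertical, from 0, with its own scale in each panel) of each gene in the astrocyte-like clusters of 20 cells or more, uninjured in blue and injured in red, with exact Poisson 95% intervals. Kcnj10 bars of the uninjured clusters are nearly level, between 442 and 480 CPM, whereas Kcnk1 bars run from 240 to 553 CPM and the injured cluster 3 lies below them, at 207 CPM.

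Injured astrocyte-like cells with a UMI of Lcn2 or Timp1, genes that mark the reactive state, were compared with those without. The 175 cells with such a UMI had a median depth of 4838 and the 234 without one 2737, so the split also follows depth. Kcnk1 was at 209 CPM with and 193 CPM without (ratio 1.09, 0.897 to 1.32), and Kcnj10 at 499 and 450 CPM (1.11, 0.980 to 1.26). Kcnj16 was 1.47 times higher with such a UMI (1.17 to 1.87) and Atp1b2 1.18 times (1.10 to 1.26). The lower Kcnk1 of the injured library was thus seen on both sides of this split.

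Atp1b1 was at a higher level in the astrocyte-like cells that held a neuron transcript, although 198 of its 372 uninjured UMIs and 19 of its 45 injured ones were in cells without any. The 746 uninjured astrocyte-like cells with a neuron marker UMI had 56.0 CPM of Atp1b1 (48.0 to 65.0), and the 2414 without one had 23.3 CPM (20.2 to 26.8). In the injured library the levels were 45.2 CPM (29.5 to 66.2) in 64 cells and 11.3 CPM (6.81 to 17.7) in 345 cells. Atp1b2 had 1891 and 2007 CPM in the same uninjured groups, and 1687 and 1762 CPM in the injured ones. The UMIs of Atp1b2 per UMI of Atp1b1 were 87.3 (65.1 to 119.9) in injured and 61.6 (55.6 to 68.4) in uninjured astrocyte-like cells, and 4.20 and 0.0667 in uninjured and injured neuron-like cells. The part of neuron transcripts in the Atp1b1 level of astrocyte-like cells was not tested.

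**Figure D5:**
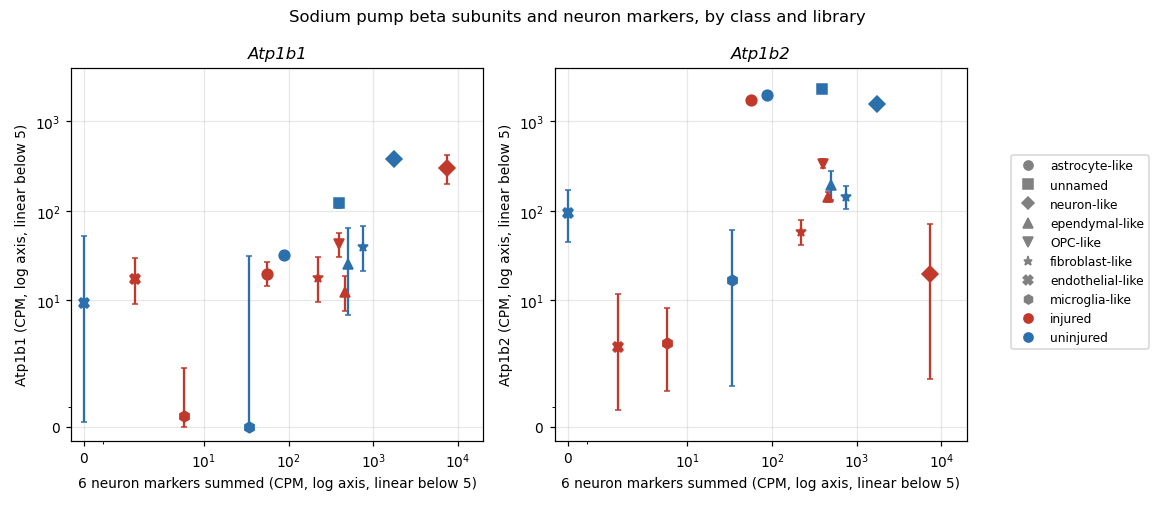
CPM of Atp1b1 (left) and Atp1b2 (right) against the summed CPM of 6 neuron markers, by class (symbol) and library (colour), with Poisson 95% intervals and log axes that are linear below 5. Atp1b1 is highest in the neuron-like groups, at 298.5 and 377 CPM, while Atp1b2 is highest in the unnamed and astrocyte-like groups and at 19.9 CPM in the injured neuron-like cells.

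Likeness of pattern was taken as Pearson's r of log2(CPM + 1) over 14 class sums of 20 cells or more, among 9003 genes. These sums share 2 libraries and differ in depth, so r is a description. The genes most like Kcnj10 were Ttyh1 (r = 0.98), Arhgef26 and Ppargc1a (both 0.97). Those most like Kcnk1 were Itgb8, Car10 and Rimklb (each 0.98), and those most like Kcnj16 were Pou3f3, Gm33680 and Ikzf2 (each 0.95). Atp1b2 was most like Gpr37l1 (0.98), Slc1a2 and Ctnna3 (both 0.97), of which Slc1a2 encodes the main glutamate transporter of astrocytes. Atp1b1 was most like Pja2 (0.94), Ap4s1 (0.91) and Slc4a3 (0.89). Between members, r was 0.94 for Kcnj10 and Kcnj16 but 0.53 for Atp1b2 and Atp1b1.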

How the data were processed

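The authors deposited 1 matrix per condition of raw UMI counts of genes and enhancer barcodes in called cells, from 10x Chromium Single Cell 3' v3.1 libraries. The submitters' processing notes name Cell Ranger 8.0.1 and mm10, while the matrix headers give 7.1.0, and whether intronic reads were counted is not given in the sources used here. Among 32285 Ensembl identifiers, 32235 (99.85%) matched GENCODE M21 on GRCm38.

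Kept cells had over 500 and under 50000 gene UMIs, which removed 40 injured and 0 uninjured barcodes. Counts were scaled to 10000 per cell, and 2000 variable genes, 15 components, 15 neighbours and Leiden resolution 0.5 gave 13 clusters (scanpy 1.11.5, igraph 0.11.9, Python 3.11.15). The 5 genes, the listed ion transport genes, both reporters and the enhancer features were left out of clustering. A cluster took the class with the highest marker score above 0.2, given 3 markers in 10% of its cells and no class better represented among its 10 leading genes. Cells with over 10% haemoglobin UMIs, 2 in all, were kept out of that ranking, a choice made after the data were seen. Scrublet marked 2 of 5038 cells, too few to have worked, and no doublets were removed.

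Levels are CPM of summed UMIs, and log2 ratios had 1 CPM added on either side. Poisson, Clopper-Pearson and conditional binomial 95% intervals (scipy 1.17.1) are exact and cover counting error only, and a count of 0 allows 3 counts. Counts past 2-fold cover genes at 50 CPM or more on either side. On simulated counts with 200 of 3794 genes changed 4-fold, the direction of 100% was recovered and intervals covered 94.97% of true ratios. Named are the 5 genes, listed genes at 50 CPM or more in astrocyte-like cells, and the 3 genes most like each in pattern, and some listed genes are not reported here. The members, lists and markers were chosen with earlier results of these data known. Alternatives covered cell filters, a mitochondria-rich cluster, clustering, sex, doublets, the added CPM, centring and thinning.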

Additional observations from a re-analysis of the deposited data

Results flagged for a closer look

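The ratio of Atp1b2 between the libraries lay on opposite sides of 1 in OPC-like and astrocyte-like cells, but its side in astrocyte-like cells was not stable. In OPC-like cells it was at 338 CPM (302.7 to 377) in the injured and 116 CPM (57.9 to 208) in the uninjured library, a ratio of 2.92 (1.61 to 5.90), while in astrocyte-like cells the ratio was 0.882 (0.853 to 0.913). The difference between the classes was not tested, since each library is 1 sample. The uninjured value rests on 11 UMIs of 14 cells at a median depth of 6182, against 328 UMIs of 41 injured cells at 22050. The astrocyte-like ratio turned to the other side of 1 at resolution 1.0, and its interval in male cells included no difference, as given below.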

How the results depend on the processing

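No paired analysis was possible because there is a single library on either side. The limits are depth, since Atp1b1 rests on 45 injured UMIs, and the choice of astrocyte-like cells. Kcnk1 stayed lower in the injured library in all 16 alternatives, with log2 ratios from -1.33 to -0.77, and Kcnj16 stayed higher in all 16, from 0.13 to 0.69. The log2 ratio of Kcnj10 ran from -0.23 to 0.38 and that of Atp1b2 from -1.09 to 0.10. Kcnj10 UMIs per Kcnj16 UMI stayed within the interval in all 11 alternatives of the injured library and 10 of 11 of the uninjured one, and were 3.6 there without cluster 4, the cluster rich in mitochondrial UMIs, an alternative chosen after seeing the data. Where a value left its interval or turned, the cause was not tested unless named.

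Log2 ratios of injured over uninjured astrocyte-like cells left the interval as follows. With at least 1000 gene UMIs per cell Kcnj10 was 0.19 and Atp1b2 -0.077. At resolution 1.0 Kcnj10 was 0.38, Kcnj16 0.55, Kcnk1 -0.77 and Atp1b2 0.10, the last turned. In male cells Atp1b2 was 0.047 (-0.020 to 0.113), an interval that includes no difference. With the members and listed genes in the clustering Kcnj10 was 0.16 and Atp1b2 -0.11. In cells with an Aldh1l1 UMI Atp1b1 was -1.38 and Atp1b2 -0.29. With the mean over cells of CPM Kcnj10 was -0.086, Kcnj16 0.13 and Atp1b2 -0.37. With the median of ranked genes subtracted Atp1b2 was -0.11. Alternatives chosen after seeing the data were these. With the unnamed cluster counted as astrocyte-like Atp1b1 was -1.17, and without the highest 5% of Scrublet scores Atp1b2 was -0.12. With the median of its group of gene span subtracted Kcnj10 was -0.23, Kcnj16 0.69, Kcnk1 -1.33 and Atp1b2 -1.09.

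The ratio to the pooled other classes in the uninjured library depends on whether neuron-like cells are among them. Without them, chosen after seeing the data, it was 8.25 for Kcnj10, 6.36 for Kcnj16, 12.1 for Kcnk1 and 15.3 for Atp1b2. For Atp1b1 it moved to 1.19 (0.771 to 1.91), an interval that includes no difference. With the members in the clustering it was 8.31, 6.54, 12.5, 15.7 and 1.27 in the same order, and with Scrublet calls removed 8.25, 6.43, 12.4, 15.6 and 1.18. Both of these Atp1b1 intervals also included no difference (0.828 to 2.05 and 0.766 to 1.90). The Scrublet calls were only 2 cells, yet the values after their removal lie near those without neuron-like cells. These uninjured ratios, that of Atp1b1 among them, are thus not stable to small changes in the clustering. With at least 1000 UMIs it was 4.03, 5.23, 8.13, 7.91 and 0.235, and at resolution 1.0 3.51, 4.77, 5.95, 6.33 and 0.237. With no filter on cells Atp1b1 was 0.141, in male cells Atp1b2 was 2.22, with the unnamed cluster counted Atp1b1 was 0.247, and in astrocyte-like cells with no neuron marker UMI Atp1b1 was 0.121. In the injured library no filter on cells gave 10.3 for Kcnj10, 10.2 for Kcnj16, 16.5 for Kcnk1 and 25.2 for Atp1b2. Resolution 1.0 gave 8.94 for Kcnj10 and 20.2 for Atp1b2, male cells 20.5 for Atp1b2, the highest Scrublet scores left out 19.7 for Atp1b2, and no neuron marker UMI 0.586 for Atp1b1.

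Atp1b2 UMIs per Atp1b1 UMI in uninjured astrocyte-like cells were 74.4 with no filter on cells, 55.5 with at least 1000 UMIs, 53.8 at resolution 1.0, 34.2 in cells with an Aldh1l1 UMI, 42.8 with the unnamed cluster counted, 74.5 without cluster 4 and 86.0 without a neuron marker UMI, where the injured value was 155.7. Genes past 2-fold numbered 733 higher and 429 lower at 50 CPM or more, and 1427 and 786 at 10 CPM or more, where more genes were counted.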

Other observations

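The 40 injured barcodes above the upper limit of depth had a median of 73304 gene UMIs. Kcnj10 was at 11.2 CPM in them, with a UMI in 5 cells, and Atp1b2 at 6.03 CPM, with a UMI in 10 cells. Kcnk1 had 1 UMI, Atp1b1 3 and Kcnj16 0. C1qa, a complement gene of microglia, was at 102.5 CPM with a UMI in 13 of these cells, and Gfap at 36.8 CPM with a UMI in 14.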
